A study of Mus musculus with 58 samples.

Results

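10 genes of lipoprotein handling, sterol efflux and lipid storage were followed by symbol through 3 tables of raw RNA-seq counts. They were Apoe, Lpl, Abca1, Abcg1, Nr1h3, Mylip, Plin2, Soat1, Ch25h and Fabp5. The age series table lists all 10 among 24940 genes, and all 10 passed the filter on low counts, which left 14309 genes for testing. Ch25h and Fabp5 passed it only through SgshKO libraries. A table of wild-type mice given antisense oligonucleotides (ASOs) lists 7 of them among 10277 genes, without Ch25h, Fabp5 and Nr1h3. A table of ASO-treated SgshKO mice lists 8 among 10589, without Ch25h and Nr1h3.

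The libraries were polyA RNA-seq of microglia, the resident macrophages of the brain, sorted from C57BL/6 mouse forebrain as DAPI-, CD11b+, CD45low and CX3CR1+ cells. SgshKO mice carry a knockout of Sgsh, which codes for a lysosomal heparan sulfate sulfatase. The age series covered wild-type (WT) and SgshKO genotypes with 3 and 4 libraries at 3 weeks, 2 and 2 at 4 months, and 4 and 7 at 8 months, with no treatment named. In the WT set, 5 groups of 4 libraries each differ in what was injected, which was PBS, the control oligonucleotide (ntc in the labels) or the ASO to Mitf, to Tfeb or to Tfe3. SgshKO mice received the control ASO or the Mitf and Tfe3 ASOs together, with 8 libraries each. ASOs are oligonucleotides that lower a target transcript. Each was injected as 1 intracerebroventricular bolus 14 days before the microglia were harvested, so PBS and control ASO mice also had the injection. The labels give no age for ASO-treated mice and no sex, and do not say which part of Sgsh is deleted. They do not say that libraries of a group came from separate animals, so p-values measure the spread between libraries, which may be technical in part.

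Microglia take up cholesterol and fatty acids from lipoproteins, from myelin and from dead cells, and pass them on through the lysosome. ApoE is the main lipoprotein component that glia secrete, and the transporters ABCA1 and ABCG1 load it with cholesterol. Sterol that is not exported is esterified and stored in lipid droplets, and oxysterols formed from cholesterol activate the nuclear receptor LXR, which raises transcription of Abca1, Abcg1, Apoe and Mylip. MITF, TFEB and TFE3 are related transcription factors that drive genes of the lysosome and bind the E-box CACGTG.

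Library totals spanned 8191508 to 27106584 counts (age series), 14372015 to 30378870 (WT ASOs) and 12517838 to 30431437 (SgshKO ASOs). Values below are CPM, that is counts scaled by library size and TMM factor to a fixed total, and differences are log2 fold changes. All 10 microglia markers had counts in every group. Their summed level was lower in SgshKO, at 33265 to 37046 CPM against 41644 to 50585 in WT at 8 months. All 10 monocyte and neutrophil markers are listed. Their sum was 7.09 to 36.0 CPM in WT and in SgshKO at 3 weeks, 3020 and 14846 in the SgshKO libraries at 4 months, and 440 to 5822 at 8 months. The sum of the 8 border macrophage markers, mostly Mrc1, was 61.3 to 108 CPM in SgshKO and 15.9 to 32.1 in WT at 8 months, 71.2 and 124 against 9.46 and 10.5 at 4 months, and 83.0 to 109 against 55.1 to 76.0 at 3 weeks. The 8 astrocyte markers summed to 179 to 300 CPM in SgshKO and 288 to 403 in WT at 8 months, and the 6 endothelial markers to 7.14 to 18.0 and 0.354 to 1.84. In 1 fit the 2 SgshKO libraries at 8 months with over 1000 CPM of monocyte and neutrophil markers were left out. Those kept still held more of these markers than WT. The part of these lists in the results was not tested otherwise. Sgsh itself was lower by 0.74 (log2) in SgshKO at 8 months with overlapping libraries, which is no check of the labels without the deleted part. All differences are from edgeR's quasi-likelihood test with Benjamini-Hochberg adjustment over all genes tested, and a gene is called at an adjusted p under 0.05.

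RefSeq's promoter table (GRCm38.p6, 250 bases before to 50 after each start) held 7 of the 10 genes, in 10 entries. Because the ASOs target factors that bind CACGTG, the entries were searched on both strands for CACGTG, for TCATGTG, a related E-box, and for AGGTCA, the hexamer recognised by LXR and its partner RXR. CACGTG occurred in Abca1 and Plin2, where it is in capitals below, starting 147 bases and 4 bases before the start. AGGTCA occurred in Plin2 on the opposite strand, at bases 33 to 38 of the sequence below. TCATGTG was in none, and the entries of Apoe, Nr1h3, Mylip, Ch25h and Soat1 held none of the 3 motifs. Soat1 is shown because it changed after ASO treatment. Of 32851 mouse promoter entries of the same length, 7.15% hold CACGTG, 3.77% TCATGTG and 16.3% AGGTCA, so a match describes the letters and no binding. The sequences are on the minus strand, at chr4:53159846-53160145 (Abca1), chr4:86670010-86670309 (Plin2) and chr1:156474279-156474578 (Soat1).
Abca1: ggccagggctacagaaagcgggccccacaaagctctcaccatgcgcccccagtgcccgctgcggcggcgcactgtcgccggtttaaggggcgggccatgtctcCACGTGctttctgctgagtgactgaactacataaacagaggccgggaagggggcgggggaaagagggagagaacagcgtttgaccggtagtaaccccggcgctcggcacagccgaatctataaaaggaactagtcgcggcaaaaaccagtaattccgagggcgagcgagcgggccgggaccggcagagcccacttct
Plin2: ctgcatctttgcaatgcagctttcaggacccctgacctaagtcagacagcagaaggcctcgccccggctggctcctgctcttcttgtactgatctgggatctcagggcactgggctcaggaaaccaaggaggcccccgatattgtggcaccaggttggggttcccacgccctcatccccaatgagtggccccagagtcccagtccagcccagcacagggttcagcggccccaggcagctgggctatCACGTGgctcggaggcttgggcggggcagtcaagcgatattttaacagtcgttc
Soat1: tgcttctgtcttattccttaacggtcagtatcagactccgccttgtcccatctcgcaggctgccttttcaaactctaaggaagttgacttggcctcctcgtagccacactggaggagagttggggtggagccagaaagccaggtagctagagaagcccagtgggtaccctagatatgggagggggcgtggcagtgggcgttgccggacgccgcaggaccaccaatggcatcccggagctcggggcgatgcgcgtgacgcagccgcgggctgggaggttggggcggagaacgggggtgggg

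The genotype comparison asked how loss of Sgsh changed these genes as the mice aged. Apoe, Plin2 and Soat1 were called higher in SgshKO at all 3 ages, and Fabp5 and Ch25h at 4 and 8 months. Abca1 was called higher at 3 weeks and 8 months, and Lpl lower at 3 weeks and higher later. The calls of Ch25h at 4 months, Soat1 at 3 weeks and Abca1 at both ages were lost in some alternative fits. Abcg1 was lower at 4 and 8 months, Mylip at 4 months alone, and Nr1h3 passed the test at no age. At 3 weeks 4 members were called higher and 1 lower, where 5.31% of all genes were called higher and 3.72% lower. The numbers were 6 and 2 at 4 months (10.3% and 9.26% of all genes) and 7 and 1 at 8 months (21.6% and 18.9%). Fabp5 and Ch25h are among those called higher at 4 and 8 months, and they enter the medians below. They passed the filter on low counts only through SgshKO libraries, with 20 and 26 counts in WT at 8 months. Their place in these numbers is therefore not independent of the filter. The median log2 difference of the members was 0.40, 0.90 and 1.13 at the 3 ages, beside -0.02, 0.02 and 0.02 over all genes. The members were chosen with earlier results of these data known, so setting them beside all genes here and below only describes them. Whether libraries overlap is given below as a description, and the share of all genes without overlap was not computed. With 2 libraries per genotype at 4 months it says little. Tfeb and Tfe3 did not overlap there either, with an adjusted p of 0.411 and 0.426. In bulk samples, a change in RNA per cell and a change in the share of cells that express a gene cannot be told apart.

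**Figure D1:**
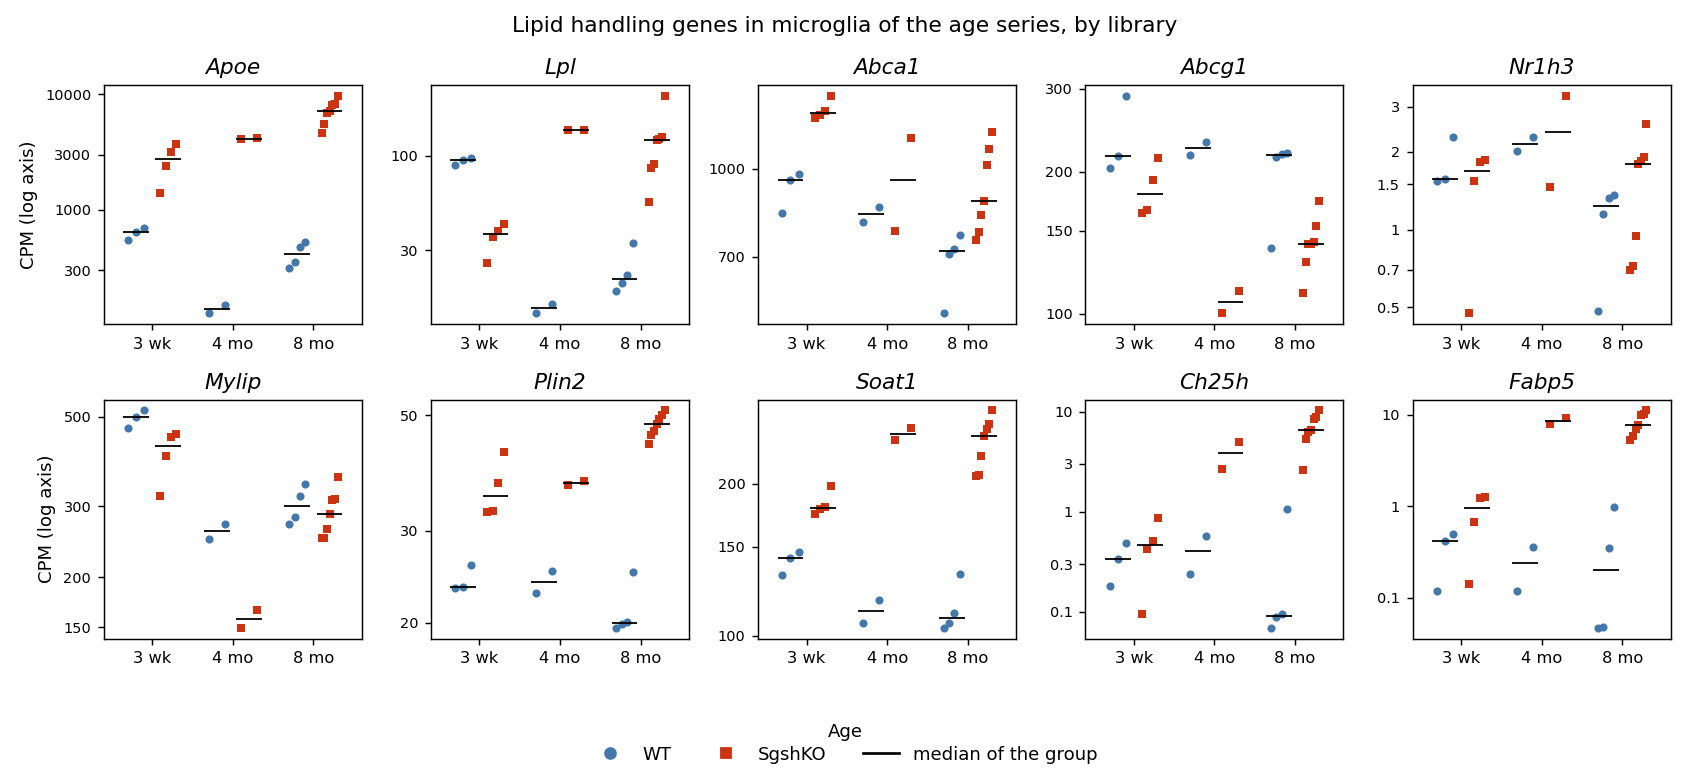
CPM of the 10 genes in the 22 libraries of the age series, on log axes, with 1 point per library (WT circles, SgshKO squares) and a line at each group's median. For Apoe, Plin2 and Soat1 all SgshKO libraries lie above the WT libraries of their age. Lpl is below WT at 3 weeks (25.5 to 42.0 against 88.4 to 96.6) and above it later.

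Apoe (chr7:19696244-19699188, minus strand, mm10) encodes apolipoprotein E, the ligand by which lipoproteins are taken up through their receptors. At 3 weeks the WT libraries had 689, 639 and 543 CPM and the SgshKO libraries 1400, 3154, 3703 and 2393. At 4 months the values were 149 and 127 in WT and 4163 and 4109 in SgshKO. At 8 months they were 311, 349, 525 and 478 in WT, and in SgshKO the lowest was 4667, the median 7156 and the highest 9708. All SgshKO libraries were above all WT libraries of their age. At 4 months the monocyte and neutrophil marker sums of the SgshKO libraries were 3020 and 14846 CPM, and their part in the difference was not tested. The log2 difference was 2.09 (SE 0.26) at 3 weeks, or 4.27-fold, with an adjusted p of 3.52e-06. It was 4.90 (SE 0.37) at 4 months, or 30.0-fold, with an adjusted p of 1.25e-09, and 4.11 (SE 0.24) at 8 months, or 17.2-fold, with an adjusted p of 1.59e-12. Without SgshKO replicates 1 and 3, which had the most monocyte and neutrophil marker RNA, the difference at 8 months was 4.07. The SgshKO libraries kept in that fit still held 440 to 825 CPM of these markers, against 11.4 to 13.5 in WT.

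Lpl (chr8:68880555-68906932, plus strand) encodes lipoprotein lipase, which releases fatty acids from lipoprotein triglycerides. At 3 weeks the WT libraries had 94.7, 88.4 and 96.6 CPM and the SgshKO libraries 42.0, 35.6, 25.5 and 38.1. At 4 months the order was the opposite, with 13.5 and 15.2 CPM in WT and 138 in both SgshKO libraries. At 8 months WT had 33.0, 17.8, 19.8 and 21.9 CPM, and SgshKO 55.2 to 214 with a median of 122. The genotypes did not overlap at any age. Lpl was 2.63-fold lower in SgshKO at 3 weeks (log2 difference -1.39, SE 0.28, adjusted p = 0.00124). It was 9.58-fold higher at 4 months (3.26, SE 0.41, adjusted p = 2.94e-06) and 5.07-fold higher at 8 months (2.34, SE 0.25, adjusted p = 6.04e-08; 2.39 without SgshKO replicates 1 and 3).

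Abca1 (chr4:53030789-53159895, minus strand) exports cholesterol and phospholipid to lipid-poor ApoE. Its levels were 838, 955 and 980 CPM in WT and 1344, 1229, 1243 and 1262 in SgshKO at 3 weeks, with no overlap. At 4 months they were 856 and 807 against 1135 and 777, and at 8 months 765, 708, 724 and 558 against 751 to 1161 (median 878), with overlap at both ages. The log2 difference was 0.46 (SE 0.14, adjusted p = 0.0412) at 3 weeks, 0.20 (adjusted p = 0.494) at 4 months and 0.43 (SE 0.12, adjusted p = 0.00463) at 8 months. The call at 3 weeks was lost when any 1 of the 7 libraries was left out (adjusted p = 0.0602 to 0.185). On the deposited TPM values the calls at 3 weeks and 8 months were both lost (adjusted p = 0.130 and 0.0825).

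Abcg1 (chr17:31057694-31117981, plus strand) exports cholesterol to particles that already carry lipid. At 3 weeks WT had 216, 203 and 290 CPM and SgshKO 192, 166, 163 and 213, which overlap. At 4 months WT had 217 and 231 CPM against 112 and 100.3 in SgshKO, with no overlap. At 8 months WT had 215, 218, 219 and 138 CPM, and SgshKO 111 to 173 with a median of 141, so the lowest WT library lay within the SgshKO range. Abcg1 was 2.11-fold lower in SgshKO at 4 months (log2 difference -1.08, SE 0.20, adjusted p = 4.14e-04) and 1.40-fold lower at 8 months (-0.48, SE 0.12, adjusted p = 0.00271). At 3 weeks the difference was -0.36 with an adjusted p of 0.162.

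**Figure D2:**
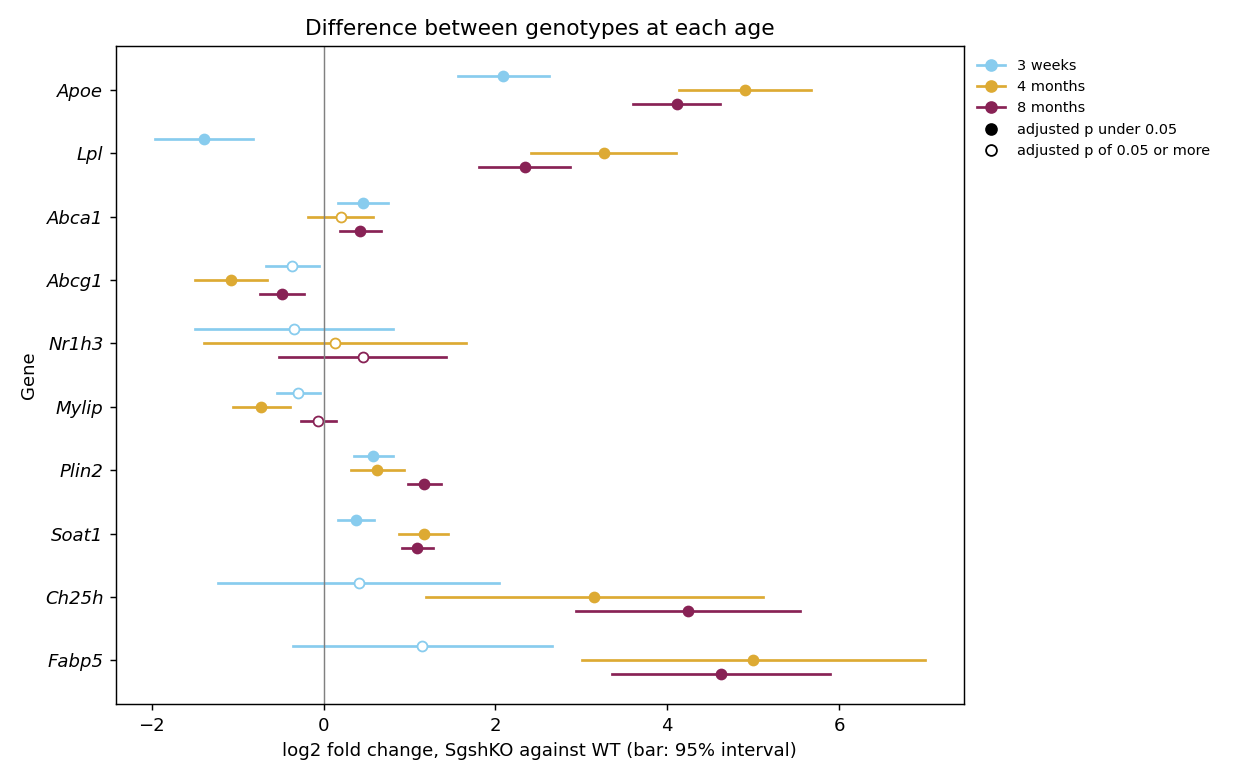
Log2 fold change of SgshKO against WT for each gene at 3 weeks, 4 months and 8 months, with the 95% interval of the fit as bars and filled points for an adjusted p under 0.05. Apoe goes from 2.09 to 4.90 and 4.11 and Lpl from -1.39 to 3.26 and 2.34, while the intervals of Nr1h3 include 0 at each age.

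Nr1h3 (chr2:91184061-91195035, minus strand) encodes LXR alpha. It was near the lower end of detection, with 1.54, 1.56 and 2.29 CPM in WT and 0.475, 1.85, 1.55 and 1.83 in SgshKO at 3 weeks. At 4 months the values were 2.01 and 2.30 against 3.30 and 1.46, and at 8 months 0.486, 1.36, 1.32 and 1.15 against 0.699 to 2.56. The genotypes overlapped at each age, and no difference passed the test (adjusted p = 0.832, 0.929 and 0.471). At 8 months the log2 difference was 0.46, with a 95% interval of -0.51 to 1.43.

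Mylip (chr13:45389742-45411940, plus strand) encodes the ubiquitin ligase IDOL, which removes lipoprotein receptors from the cell surface. At 4 months it had 249 and 271 CPM in WT and 166 and 149.7 in SgshKO, a 1.65-fold lower level in SgshKO (log2 difference -0.72, SE 0.16, adjusted p = 0.00218). At 3 weeks WT had 498, 470 and 518 CPM and SgshKO 318, 445, 452 and 399. Those libraries did not overlap, but the difference of -0.30 was not called (adjusted p = 0.154). At 8 months WT had 271, 340, 318 and 282 CPM and SgshKO 250.4 to 355 with a median of 287. The ranges overlapped, and the log2 difference was -0.06 with a 95% interval of -0.27 to 0.14.

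Plin2 (chr4:86656565-86670059, minus strand) encodes perilipin 2, which coats lipid droplets. WT libraries had 23.4, 25.8 and 23.5 CPM at 3 weeks, 22.8 and 25.2 at 4 months and 19.6, 25.0, 19.9 and 20.1 at 8 months. SgshKO libraries had 32.5, 37.0, 42.5 and 32.8 CPM at 3 weeks, 37.4 and 36.8 at 4 months, and 44.0 to 51.1 with a median of 48.0 at 8 months. Every SgshKO library was above every WT library of any age. The log2 difference was 0.58 (SE 0.11, 1.49-fold, adjusted p = 8.71e-04), 0.63 (SE 0.15, 1.54-fold, adjusted p = 0.00366) and 1.17 (SE 0.09, 2.26-fold, adjusted p = 3.21e-10) at the 3 ages.

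Soat1 (chr1:156428108-156474328, minus strand) encodes the enzyme that esterifies cholesterol for storage, also called ACAT1. At 3 weeks WT had 146, 132 and 143 CPM and SgshKO 198, 178, 174 and 180. At 4 months the values were 118 and 106 against 257 and 244. At 8 months they were 132, 106, 104 and 111 against 207 to 280, with a median of 248. No SgshKO library overlapped WT at the same age, and Soat1 was 1.30-fold, 2.24-fold and 2.13-fold higher at the 3 ages. The log2 differences were 0.38 (SE 0.10, adjusted p = 0.0182), 1.17 (SE 0.14, adjusted p = 1.08e-06) and 1.09 (SE 0.09, adjusted p = 3.21e-10). The call at 3 weeks was lost on TPM values (adjusted p = 0.0890), without WT replicate 2 (0.1004) and without SgshKO replicate 1 (0.0504).

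Ch25h (chr19:34473784-34475135, minus strand) encodes cholesterol 25-hydroxylase, which makes the oxysterol 25-hydroxycholesterol. WT libraries had 0.491, 0.181 and 0.335 CPM at 3 weeks, 0.236 and 0.574 at 4 months, and 0.0694, 1.07, 0.0944 and 0.0884 at 8 months. SgshKO libraries had 0.0950, 0.428, 0.871 and 0.511 CPM at 3 weeks, 2.69 and 4.99 at 4 months, and 2.62 to 10.3 with a median of 6.60 at 8 months. The genotypes overlapped at 3 weeks only. These levels rest on few reads, 957 counts in 7 SgshKO libraries and 26 in 4 WT libraries at 8 months, which is an 18.7-fold higher CPM with a counting interval of 12.7 to 28.8. The fitted log2 difference was 4.24 (SE 0.63, adjusted p = 7.13e-06) at 8 months and 3.15 (SE 0.95, adjusted p = 0.0203) at 4 months. At 4 months, fits that left out WT replicate 1, WT replicate 2 or SgshKO replicate 2 gave adjusted p of 0.156, 0.0863 and 0.141, so the call did not hold. At 8 months WT replicate 2 held most of the WT counts, and without it the difference was 6.21.

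Fabp5 (chr3:10012585-10016610, plus strand) encodes a cytosolic fatty acid binding protein. It has processed copies elsewhere in the mouse genome, and reads that it shares with them could be counted either way. WT libraries had 0.421, 0.120 and 0.503 CPM at 3 weeks, 0.118 and 0.359 at 4 months, and 0.971, 0.0485, 0.0472 and 0.354 at 8 months. SgshKO libraries had 0.142, 0.666, 1.26 and 1.24 CPM at 3 weeks, 7.82 and 9.29 at 4 months, and 5.30 to 11.1 with a median of 7.69 at 8 months. As with Ch25h, the genotypes overlapped at 3 weeks and were apart later. The counts were 172 in SgshKO against 6 in WT at 4 months, a 32.4-fold higher CPM (counting interval 14.6 to 89.6). At 8 months they were 1061 against 20, or 27.0-fold (17.4 to 44.4). The fitted log2 difference was 5.003 (SE 0.97, adjusted p = 5.59e-04) at 4 months and 4.63 (SE 0.62, adjusted p = 1.43e-06) at 8 months. Leaving out WT replicate 2 at 4 months gave 6.11 and leaving out WT replicate 1 at 8 months 6.00, and both stayed called. Without SgshKO replicates 1 and 3 at 8 months, Fabp5 differed by 4.65, Ch25h by 4.20, Soat1 by 1.14, Plin2 by 1.17, Abca1 by 0.50 and Abcg1 by -0.51, all called.

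Levels can be compared between genes only per transcript length, for which the deposited TPM values serve. In WT at 8 months Apoe was highest at 545 ± 138 TPM (SD, n = 4), followed by Mylip (159 ± 15.6), Abca1 (105 ± 12.7), Abcg1 (53.2 ± 10.2), Soat1 (37.2 ± 4.27), Plin2 (17.6 ± 2.003) and Lpl (8.97 ± 2.61). Nr1h3 (0.970 ± 0.360), Fabp5 (0.589 ± 0.717) and Ch25h (0.379 ± 0.561) came last and did not differ from each other beyond their spread. In SgshKO at 8 months Apoe stood at 8484 ± 1896 TPM (SD, n = 7). Mylip (138 ± 21.7) and Abca1 (129 ± 25.6) followed and did not differ beyond their spread, nor did Lpl (40.8 ± 17.4), Plin2 (36.1 ± 2.49) and Abcg1 (34.6 ± 5.46), below Soat1 (71.9 ± 9.43). Fabp5 (12.2 ± 3.23) and Ch25h (7.25 ± 2.68) were above Nr1h3 (1.24 ± 0.622), which was last.

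Whether the genotype difference itself changed with age was tested as an interaction. Between 3 weeks and 4 months 3 members were called, all with a larger difference at 4 months, where 1.63% of all genes were called in that direction. Lpl moved by 4.66 (SE 0.49, adjusted p = 1.21e-05), Apoe by 2.81 (SE 0.41, adjusted p = 3.11e-04) and Soat1 by 0.79 (SE 0.17, adjusted p = 0.0125). For Soat1 this was lost without WT 4-month replicate 2 (adjusted p = 0.1003) and without SgshKO 4-month replicate 2 (0.0606). Fabp5 (3.85, adjusted p = 0.0984) and Ch25h (2.74, adjusted p = 0.271) did not pass. Fabp5 was called by DESeq2 (adjusted p = 0.0200), with no count filter (0.0359) and on TPM with a pseudocount of 1 (0.00429).

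Between 3 weeks and 8 months 6 members had a larger difference at the later age, where 5.98% of all genes did. They were Lpl (3.74, SE 0.37, adjusted p = 2.96e-07), Apoe (2.01, SE 0.32, adjusted p = 1.35e-04), Soat1 (0.71, SE 0.13, adjusted p = 8.57e-04), Plin2 (0.60, SE 0.14, adjusted p = 0.00828), Ch25h (3.83, SE 1.01, adjusted p = 0.0167) and Fabp5 (3.47, SE 0.97, adjusted p = 0.0230). Without WT 3-week replicate 1, Ch25h (adjusted p = 0.0762) and Fabp5 (0.0716) were lost, and Fabp5 also without WT 3-week replicate 3 (0.123). Ch25h and Fabp5 passed the filter on low counts only through SgshKO libraries. Abca1 (-0.03), Abcg1 (-0.12), Mylip (0.23) and Nr1h3 (0.80) did not pass. No member's difference was called between 4 and 8 months, where edgeR called 0.391% of all genes in either direction. The nearest were Mylip (0.66, adjusted p = 0.141) and Plin2 (0.55, adjusted p = 0.188).

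Each genotype was also compared between 8 months and 3 weeks. In WT, 2 members were lower at 8 months than at 3 weeks, where 4.63% of all genes were: Lpl by 4.05-fold (log2 difference -2.02, SE 0.28, adjusted p = 4.17e-05) and Mylip (-0.71, SE 0.12, adjusted p = 3.76e-04). Apoe (-0.58, adjusted p = 0.151), Abca1 (-0.42, adjusted p = 0.0628) and Soat1 (-0.31, adjusted p = 0.0635) were not called. DESeq2 called Abca1 (adjusted p = 0.0238) and Soat1 (0.0404), and the fit with no count filter called Abca1 (0.0238) and Apoe (0.0407). In SgshKO, 6 members were higher at 8 months than at 3 weeks and 3 lower, beside 15.5% and 15.1% of all genes. The higher ones were Ch25h (3.94, adjusted p = 3.44e-05), Fabp5 (3.37, adjusted p = 5.19e-05), Lpl (1.72, adjusted p = 7.91e-06), Apoe (1.43, adjusted p = 1.23e-05), Plin2 (0.40, adjusted p = 0.00135) and Soat1 (0.40, adjusted p = 7.56e-04). The lower ones were Mylip (-0.48, adjusted p = 6.16e-04), Abca1 (-0.45, adjusted p = 0.00349) and Abcg1 (-0.38, adjusted p = 0.0216), of which Abcg1 was lost without SgshKO 3-week replicate 1 (0.0579) or 4 (0.105). Those comparisons share their libraries with the genotype comparisons.

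The scaling matters for the split of all genes into higher and lower. On the TPM values the median log2 difference of all genes at 8 months was -0.11, and 2241 genes were called higher and 4120 lower, against 3090 and 2703 on counts. At 3 weeks the TPM split was 605 and 773 against 760 and 532 on counts. At 4 months it was 1569 and 1927 with a pseudocount of 1, and 1263 and 1927 with 0.1, against 1469 and 1325. For the difference of the genotype effect between 8 months and 3 weeks it was 698 and 665 against 856 and 467. Between 8 and 4 months it was 40 and 46, or 30 and 20 with a pseudocount of 0.1, against 37 and 19. The TPM splits not marked 0.1 are with a pseudocount of 1. No called difference of a member turned its direction on TPM. Abca1 at 8 months was at 0.28 on TPM, 0.43 with TMM factors.

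Likeness over the 22 libraries was measured as the mean absolute difference of the centred log2 CPM, which is not scaled to how much a gene varies. The mean absolute deviation of a gene from its own mean was 0.43 for Plin2 and 0.42 for Soat1. It was 1.06 for Lpl, 1.80 for Apoe, 1.81 for Ch25h and 1.99 for Fabp5. Genes that vary little have low values whatever their course, so values of different members are not ranked against each other. Plin2 and Soat1 had the lowest value of the 45 pairs of members, at 0.19. Ch25h and Fabp5 differed by 0.77 and Apoe and Fabp5 by 0.91. Over all tested genes, the nearest to Apoe were Scn3b (0.44), Cd200r4 (0.49) and Gpr162 (0.52), and the nearest to Lpl were Clic4 (0.56), Gas2l3 (0.57) and Trerf1 (0.59). Plin2 was nearest to Hexa (0.085), a lysosomal hexosaminidase subunit gene, Prdx4 (0.11) and Rack1 (0.11), and Soat1 to Gng12 (0.096), Pabpc1 (0.11) and Gm6548 (0.13). Ch25h lay nearest to Colec12 (0.51), Axl (0.58) and Lgals3 (0.62), and Fabp5 to Cst7 (0.55), Axl (0.58) and Lilrb4a (0.58). The libraries share genotype, age and depth, so these values only describe the age series.

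The rest of the pathway was read from 5 lists of 92 genes, of which 80 were tested. At 8 months 33 of them were called higher in SgshKO and 17 lower, with a median log2 difference of 0.28, beside 21.6% and 18.9% of all genes and their median of 0.02. At 3 weeks the counts were 11 and 2 of 80 (5.31% and 3.72% of all genes), and at 4 months 18 and 11 (10.3% and 9.26%). The lists are described by these counts, and nothing is read from those near the share of all genes. They too were chosen with earlier results of these data known, so the shares beside them are no test.

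Of lipoproteins, their receptors and remodelling, 5 of 14 tested genes rose at 8 months and 1 fell, beside 21.6% and 18.9% of all genes. Apoc2, the cofactor of lipoprotein lipase, had 277 counts in SgshKO and 1 in WT, so that its CPM was 141-fold higher (25.1 to 5591 by counting error). Of sterol efflux, trafficking and hydrolysis, 10 of 18 rose and 5 fell, beside the same shares of all genes. From both lists only genes that rose are named here. Npc2, which binds cholesterol in the lysosome, rose from 347 ± 26.0 CPM (SD, n = 4) in WT to 1099 ± 66.5 (n = 7) in SgshKO (log2 difference 1.66, adjusted p = 1.14e-14), and Nceh1, a cholesteryl ester hydrolase, from 18.8 ± 4.60 to 136 ± 14.3 (2.84, adjusted p = 5.07e-14).

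Of the LXR partners and targets, 8 of 16 rose and 3 fell at 8 months, beside 21.6% and 18.9% of all genes. The count of lower genes is near that share, and none of them is named here. Rxrg, an RXR subunit, was at 18.8 ± 7.09 CPM in SgshKO and 0.346 in WT (5.62, adjusted p = 1.67e-10). This WT level is near the lower end of detection, so the size of the change is uncertain. Of the fatty acid uptake and binding genes, 6 of 11 rose and none fell, beside the same shares of all genes. Among those that rose were the scavenger receptor gene Olr1 (4.41, adjusted p = 1.00e-05) and Fabp3 (4.05, adjusted p = 0.00378), a relative of Fabp5. Of the lipid droplet list, 4 of 21 rose and 8 fell, where 21.6% of all genes were called higher and 18.9% lower. Plin3, another perilipin, rose from 13.9 to 55.5 ± 1.87 CPM (1.99, adjusted p = 7.16e-13), and Dgat2, which makes triglyceride, from 0.306 to 6.76 (4.61, adjusted p = 6.20e-07). For Dgat2 too the WT level is near the lower end of detection and the size uncertain. Among the lower genes were those of 3 lipases, Mgll from 140 to 77.2 CPM (-0.86, adjusted p = 1.40e-08), Pnpla2 from 201 to 123 (-0.71, adjusted p = 8.77e-07) and Lipe from 86.6 to 56.5 (-0.62, adjusted p = 5.98e-06). These 3 are named by role out of the 8 lower genes, and each changed by less than 1 in size.

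**Figure D3:**
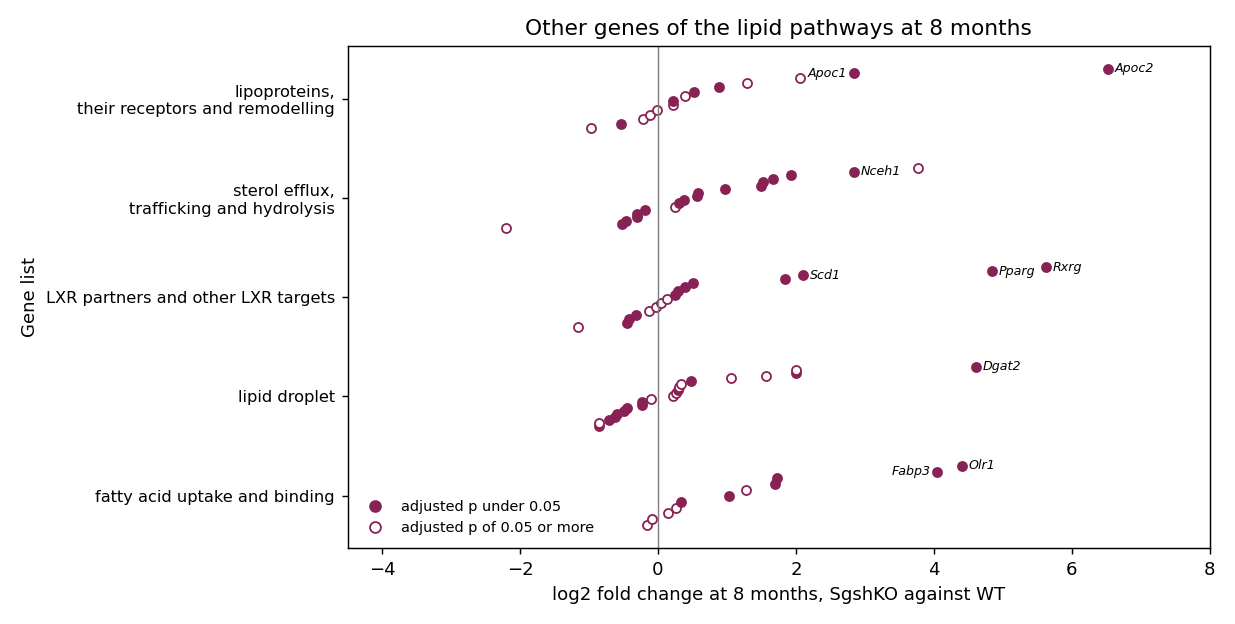
Log2 fold change of SgshKO against WT at 8 months for the tested genes of the 5 pathway lists, 1 point per gene, filled for an adjusted p under 0.05. The lipid droplet list has called genes on both sides, 4 higher and 8 lower, and the fatty acid list has 6 higher and none lower.

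The ASO sets asked how the same genes respond to loss of Mitf, Tfeb or Tfe3. The ASO tables give each gene with 1 Ensembl transcript, which for Abcg1 has 912 bases where its longest coding transcript has 5832, and for Plin2 is a non-coding entry of 588 bases. Whether reads were counted per gene or per transcript is not given in the sources used here, so levels are not set across tables. Knockdown was measurable in each set. In WT, Mitf went from 34.5 to 50.4 CPM with the control ASO to 1.01 to 2.15 with its own ASO, Tfeb from 52.6 to 58.1 to 4.59 to 6.91, and Tfe3 from 192 to 202 to 34.9 to 40.5. In SgshKO the combination lowered Mitf by 2.26 (log2) and Tfe3 by 1.08.

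In WT mice few changes of the 7 listed members were called. The control ASO against PBS changed 0% of all genes by edgeR, with 415 genes at an unadjusted p under 0.05 and 2 called by DESeq2, and no member. The Mitf ASO lowered 2 of 7 members and raised none, where 5.21% of all genes were called lower and 5.77% higher. The Tfeb ASO lowered 1 and raised none (0.214% and 0.564% of all genes). The Tfe3 ASO changed no member, where 2.16% of all genes were called, 1.46% higher and 0.701% lower. The median log2 change of the 7 was 0.12, -0.10 and -0.13 with the 3 ASOs, beside -0.01, 0.01 and -0.01 over all genes.

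The called members were both sterol exporters. Abca1 had 717.5, 1076, 1157 and 1051 CPM with the control ASO in grps 1 to 4, and 751, 860, 876 and 912 with the Mitf ASO (log2 change -0.22, SE 0.06, adjusted p = 0.0379). Abcg1 had 525, 480, 391 and 421 CPM with the control ASO and 479, 386, 348 and 383 with the Mitf ASO (-0.19, SE 0.05, adjusted p = 0.0264). With the Tfeb ASO Abcg1 had 449, 390, 310.3 and 388 CPM (-0.24, SE 0.05, adjusted p = 0.0340). In each case the groups overlapped. Abcg1 was lower in 4 of 4 grps with either ASO, and Abca1 with the Mitf ASO in 3 of 4, being higher in grp 1. Without grp in the model none of the 3 was called (adjusted p = 0.462 for Abca1, 0.560 and 0.843 for Abcg1). Leaving out 1 library at a time kept the call in 3 of 8 fits for Abca1, 2 of 8 for Abcg1 with Mitf and 0 of 8 for Abcg1 with Tfeb.

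**Figure D4:**
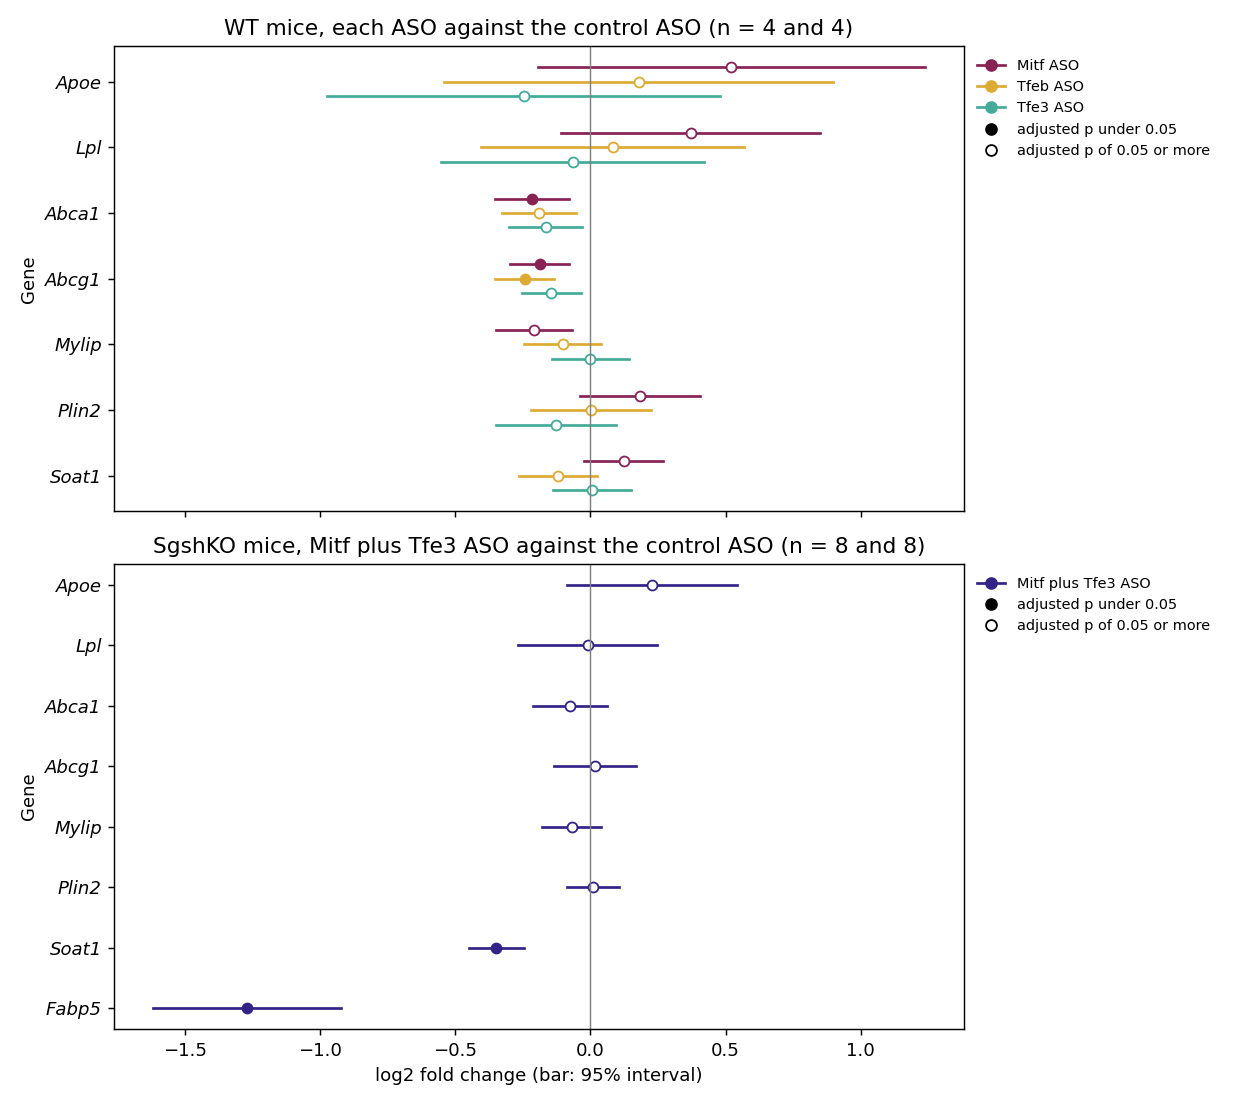
Log2 fold change with 95% interval of the listed genes, above for the Mitf, Tfeb and Tfe3 ASOs against the control ASO in WT (n = 4 and 4 each), below for Mitf plus Tfe3 in SgshKO (n = 8 and 8), with filled points for an adjusted p under 0.05. In WT no called change is larger than 0.24 in size, and in SgshKO Fabp5 is at -1.27 and Soat1 at -0.35.

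Mylip did not overlap between the control ASO (403, 427, 418 and 496 CPM) and the Mitf ASO (380, 401, 344 and 379), but its change of -0.21 had an adjusted p of 0.0536. DESeq2 (0.0386), the signal (0.0266) and the fit of the compared groups only (0.0258) called it. Apoe varied widely within groups, with 42.5, 34.3, 146 and 40.9 CPM in control ASO libraries and 62.5, 44.4, 133 and 117 with the Mitf ASO. Its change of 0.52 was not called (adjusted p = 0.360), nor were those of Lpl (0.37, adjusted p = 0.332), Plin2 (0.18, adjusted p = 0.291) and Soat1 (0.12, adjusted p = 0.282). Set against each other, Mitf and Tfe3 ASOs differed in 3.76% of all genes, Mitf and Tfeb in 3.53% and Tfeb and Tfe3 in 1.62%, and in no member. The nearest was Soat1, higher by 0.24 with the Mitf than with the Tfeb ASO (adjusted p = 0.0614), which was called by DESeq2 (0.0175), on the deposited signal (0.0169) and in the fit of the compared groups only (0.0188). Between the Mitf and Tfe3 ASOs, Plin2 was called on the signal (adjusted p = 0.0431) and Lpl in the fit of the compared groups only (0.0412).

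Of the 55 other pathway genes in the WT ASO table, 4 rose and 2 fell with the Mitf ASO, beside 5.77% and 5.21% of all genes. Both counts are near these shares, and of the called genes in this set only Npc2 is named here. Npc2 rose from 537 to 886 CPM (log2 change 0.72, adjusted p = 4.03e-08). It also rose with the Tfeb ASO (0.37), the one pathway gene called there, where 0.564% of all genes were called higher. With the Tfe3 ASO 1 rose and 1 fell, beside 1.46% and 0.701% of all genes. Npc2 was also higher with the Mitf than with the Tfe3 ASO (0.58, called).

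In SgshKO mice the combined Mitf and Tfe3 ASOs lowered 2 of 8 members, Fabp5 and Soat1, and raised none, where 4.5% of all genes were called lower and 4.84% higher. The median change of the 8 was -0.04, beside 0.00 over all genes. The 8 control libraries had 5.29 to 9.49 CPM of Fabp5 with a median of 7.14, and the 8 combination libraries 2.15 to 5.03 with a median of 2.69. All combination libraries were below all control libraries. The log2 change of Fabp5 was -1.27 (SE 0.17), a 2.42-fold lower level with an adjusted p of 1.65e-04. Soat1 had 381 to 464 CPM (median 411) with the control ASO and 313 to 372 (median 318) with the combination, again with no overlap. Its log2 change was -0.35 (SE 0.05), or 1.27-fold lower, with an adjusted p of 3.07e-04.

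The libraries fall into 2 sets, which the titles call grp 1 and grp 2, with 4 of each treatment. In grp 2 alone Fabp5 was at -1.41 (adjusted p = 0.00231) and Soat1 at -0.34 (0.00428), and in grp 1 alone at -1.13 (0.0613) and -0.35 (0.0531). Whether the change differed between grps was tested as an interaction, which gave -0.24 for Fabp5 and 0.04 for Soat1, neither called (adjusted p = 0.747 and 0.856). Both calls held in 16 of 16 fits that left out 1 library. The 7 listed monocyte and neutrophil markers summed to 5.44 to 568 CPM with the control ASO and 4.14 to 361 with the combination, and the 1 listed border macrophage marker stood at 116 to 183 and 155 to 195. The part of these markers in the changes was not tested.

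**Figure D5:**
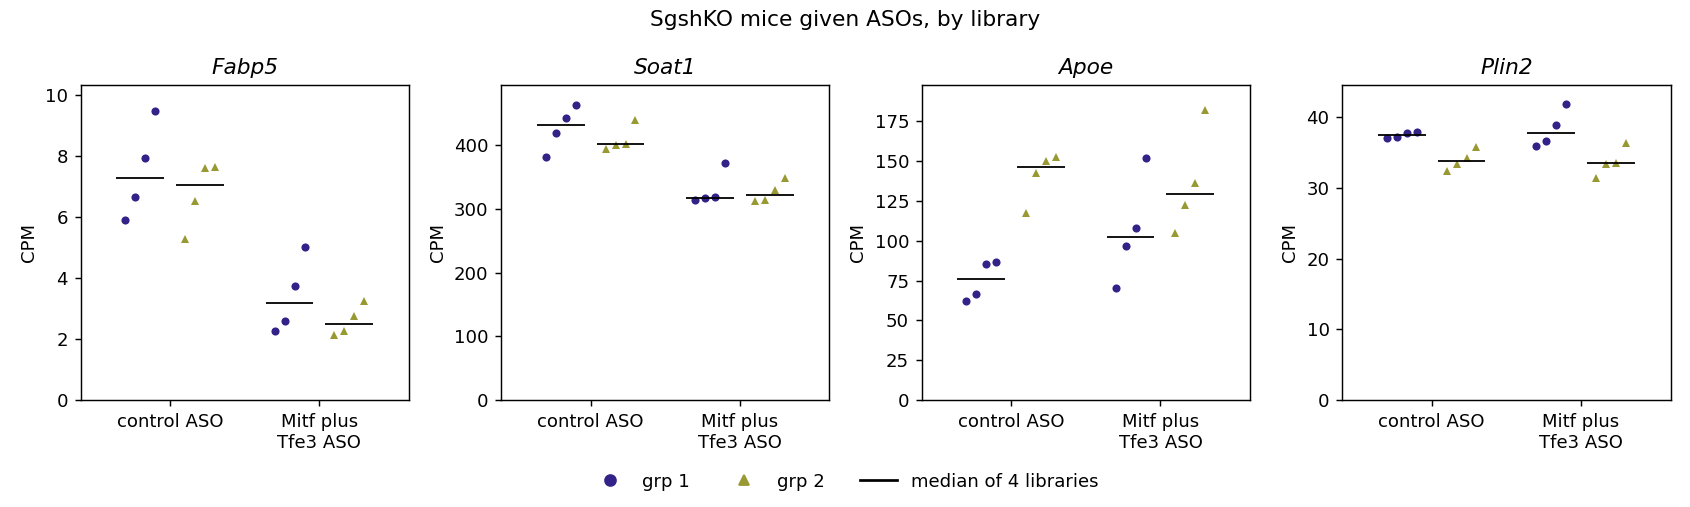
CPM of Fabp5, Soat1, Apoe and Plin2 in the 16 SgshKO ASO libraries by grp and treatment, 1 point per library and a line at the median of 4. Fabp5 and Soat1 are lower with the combination in both grps, whereas Apoe differs between grps in control libraries (61.9 to 86.4 in grp 1, 117 to 153 in grp 2).

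The other 6 members did not pass. Apoe had 61.9 to 153 CPM with the control ASO and 70.5 to 182 with the combination (log2 change 0.23, 95% interval -0.09 to 0.54, adjusted p = 0.370). Lpl had 22.8 to 40.8 CPM and 20.2 to 49.8 (-0.01, interval -0.27 to 0.25). The interval for Plin2 was narrower, -0.09 to 0.10 around 0.01, and the changes of Abca1 (-0.08), Abcg1 (0.02) and Mylip (-0.07) were not called. Of the 62 other pathway genes listed, 5 rose and 4 fell, beside 4.84% and 4.5% of all genes. Those that fell were Nceh1, from 198 ± 18.7 to 126 ± 14.5 CPM (SD, n = 8; -0.65, adjusted p = 6.99e-06), Lipa (-0.34, adjusted p = 7.30e-04), which hydrolyses cholesteryl esters in the lysosome, Npc1 (-0.16) and Smpdl3a (-0.25). Those that rose were Ncor1 (0.46, adjusted p = 0.00359), Lrpap1 (0.41, adjusted p = 0.00293), Mgll (0.32, adjusted p = 0.00889), Bscl2 (0.14, adjusted p = 0.0490) and Npc2. Npc2 went from 855 to 975 CPM (0.19, adjusted p = 0.00395).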

How the data were processed

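The authors deposited raw counts per gene for each of the 3 sets, TPM for the age series and, for both ASO sets, gene signal values that are normalised and batch-corrected by a method not given in the sources used here. The submitters' processing notes name STAR 2.5.3a, kallisto 0.44.0, HOMER 4.11 and DESeq2 1.36.0 and the build mm10, without saying which step made which file. Per the labels' protocols, libraries were dUTP-stranded and sequenced single-end.

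The test was edgeR's quasi-likelihood F test (edgeR 4.0.16, R 4.3.3) on these counts with TMM factors, after filterByExpr at a count minimum of 10, in 1 model per table, with Benjamini-Hochberg adjustment over all genes tested and a threshold of 0.05. The age model held the 6 groups. The ASO models also held grp, the set number in the titles. In the WT ASO set grp is also the replicate number and pairs the treatments (after removal of group means, same-number libraries correlated at 0.122 to 0.640 in the 7 pairs of treatments compared here, and at -0.0333 to 0.446 between PBS and the Tfeb ASO, which were not compared). In the SgshKO ASO set same-number libraries correlated at 0.0880 to 0.612 in grp 1 and 0.0839 to 0.156 in grp 2. Those with different numbers were at -0.612 to 0.264 and -0.147 to 0.0811. The main SgshKO fit did not pair them, and the fit with a replicate block changed no member's call. The title of PBS replicate 4 gives grp 4 and its column name grp 3, of which grp 4 was used. The SE is the absolute log2 change divided by the square root of F, and so restates the test. Counting intervals are 95% and cover counting error only. No 2 libraries of a group agreed within sampling noise (lowest chi-square per degree of freedom 8.29). Alternatives were RLE factors, DESeq2 1.42.0, other count minimums, limma 3.58.1 on log2 of TPM plus 1 or plus 0.1 and on the log2 signal, a replicate block, only the compared groups, leaving out each library, and, chosen after seeing the marker sums, leaving out 2 SgshKO libraries. The members, the pathway and marker lists and the rule for named genes (all members, and pathway genes past the threshold, by size and role) were chosen with earlier results of these data known. Apoe is a different RefSeq entry in the TPM and count tables. 1 gene of the pathway lists is not reported here. The study's other assays were not used here.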

Additional observations from a re-analysis of the deposited data

Results flagged for a closer look

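4 of 81 groups of 4 to 10 libraries held a library that stood apart from the rest of its group, and chance alone flags about 1 in 20. In WT at 8 months, Abcg1 in replicate 4 was at 138 CPM where the next library had 215, Plin2 in replicate 2 at 25.0 against 20.1, and Ch25h in replicate 2 at 1.07 against 0.0944. With the control ASO in WT, Apoe in replicate 3 was at 146 CPM against 42.5 in the next.

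The genotype difference changed with age by a test of the interaction for 6 members. Between 3 weeks and 4 months the log2 difference grew by 2.81 for Apoe, 4.66 for Lpl and 0.79 for Soat1. Between 3 weeks and 8 months it grew by 2.01 for Apoe, 3.74 for Lpl, 0.60 for Plin2, 0.71 for Soat1, 3.83 for Ch25h and 3.47 for Fabp5. For Lpl the change includes a turn of sign, from lower in SgshKO at 3 weeks to higher at the later ages.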

How the results depend on the processing

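Of 839 alternative values for the 46 called member differences, 785 kept direction and call, 54 kept direction and lost the call, and none reversed. 32 of the 46 kept the call in every alternative run. The replicate block gave 835 called genes at 3 weeks, 179 for the change of the genotype difference from 3 weeks to 4 months, 9 from 4 to 8 months and 769 from 3 weeks to 8 months. In the last of these Plin2 (adjusted p = 0.0737), Ch25h (0.0550) and Fabp5 (0.0794) lost the call, which left 3 members. Same-number libraries of the age series correlated at -0.171 to 0.115 at 3 weeks, so the numbers were not used as pairs. In the SgshKO ASO set the block changed no member's call (1011 genes). It could not be fitted for the comparisons between ages within a genotype. DESeq2 called 692 genes for the change from 3 weeks to 4 months, 168 from 4 to 8 months, 2 for control ASO against PBS, 213 for Tfeb, 403 for Tfe3, 573 for Mitf against Tfeb and 429 for Tfeb against Tfe3. TPM with a pseudocount of 1 gave 683 and 86 for the first 2, and no count filter 131 for the second. The signal gave 1, 145 and 284 genes for control ASO against PBS, Tfeb, and Tfeb against Tfe3. Without the block in WT the counts were 211 for Mitf, 9 for Tfeb, 29 for Tfe3, 100 for Mitf against Tfe3, 33 for Mitf against Tfeb and 7 for Tfeb against Tfe3. Fitting only the compared groups gave 22 from 4 to 8 months, 450 for Tfeb and 359 for Tfeb against Tfe3. In SgshKO the combination gave 452 without grp, 192 in grp 1 and 430 in grp 2. Leaving out 1 library gave 867 to 1161 genes at 3 weeks, 1441 to 2708 at 4 months and 5223 to 5945 at 8 months. For the change of the genotype difference it gave 100 to 699, 927 to 1486 and 4 to 125. Within genotypes it gave 664 to 1156 (WT) and 3532 to 4610 (SgshKO). For ASOs it gave 0 to 0, 621 to 970 (Mitf), 24 to 63 (Tfeb), 79 to 140 (Tfe3), 218 to 303, 118 to 458 and 48 to 568 between ASOs, and 680 to 1131 for the combination. The cause was not tested. Depth limits Ch25h, Fabp5 and Nr1h3, which had under 3 CPM in every WT library.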
